A study of Mus musculus with 2148 samples.

Results

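The genes of the mast cell protease and granzyme cluster of mouse chromosome 14 were examined in single thymic epithelial cells. The 10 members, of 48437 genes in the count table, were listed by symbol and matched to Ensembl identifiers: Cma1, Mcpt1, Mcpt2, Mcpt4, Mcpt8, Ctsg, Gzme, Gzmd, Gzmc and Gzmb. They were chosen by their joint expression in mTEChi cells, the share of cells that held them and their levels in Aire-KO against WT mTEChi, so those values are given as a description with no test.

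Each library was 1 cell of a C57BL/6 mouse, sorted from the thymus and sequenced by RamDA-seq, which primes total RNA and covers whole transcripts. Medullary cells (mTECs) were sorted as DAPI-negative, CD45-negative, EpCAM-positive and Ly51-negative, with high (mTEChi) or low (mTEClo) surface MHC class II, and cortical cells (cTECs) as Ly51-positive. The 8 groups were 620 adult WT mTEChi, adult WT mTEClo, adult Aire-KO mTEChi and mTEClo, 77 adult WT cTEC, and mTEChi, mTEClo and cTEC of newborn WT mice 1 day old. Cells of a group that shared age and sex labels were summed as a pool. The labels do not say how many mice a pool holds. Adult WT mTEChi gave 4 pools, namely pool 1 (4-week males, the bulk of the 620 cells), pool 2 (5-week males, 12 cells), pool 3 (6-week males, 82 cells) and pool 4 (4-week females, 82 cells). Adult WT mTEClo gave 3 pools, all from males, at 8 weeks, at 5 weeks (74 cells) and at 4 weeks (66 cells). Adult cTECs were from 6-week males, both Aire-KO groups were 1 pool of 5-week males each, and each newborn group was 1 pool with sex given as unknown. A cell held 203010 to 1823784 reads, with a median of 692880. Aire was at 1467.3 ± 404.7 CPM (reads per 1000000 reads; SD, n = 4 pools) in adult WT mTEChi and at 26.1 CPM in the Aire-KO mTEChi pool, where 48.8% of cells still held 5 or more Aire reads. A lower summed level cannot be told apart from fewer cells expressing a gene except where cells are counted below.

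The members are chymotrypsin-like serine proteases that are stored in the granules of blood cells. Mast cells carry the chymases Cma1, Mcpt1, Mcpt2 and Mcpt4, basophils carry Mcpt8, neutrophils carry cathepsin G (Ctsg), and cytotoxic lymphocytes carry the granzymes. Aire lets mTEChi cells transcribe genes of many other tissues, each in a small share of cells, which exposes developing T cells to those self proteins.

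The stretch ran from Cma1 (ENSMUSG00000022225, chr14:55941451-55944675) to Gzmb (ENSMUSG00000015437, chr14:56258838-56262260) on GRCm38, 320.8 kb in all. In order along the chromosome the members were Cma1, Mcpt1, Mcpt2, Mcpt4, Mcpt8, Ctsg, Gzme, Gzmd, Gzmc and Gzmb. Mcpt1 and Mcpt2 lie on the plus strand and the other 8 on the minus strand. Of 25 genes of the table in the stretch, 15 code for protein, among them the 5 non-members Cma2, Mcpt9, Gzmg, Gzmn and Gzmf. No member overlaps another annotated gene. The proteins encoded by Gzme and Gzmd are 91.1% identical, and 20.7% and 21.9% of the 50-base windows of their transcripts occur exactly in another gene. The authors removed reads of low mapping quality, so the counts of Gzme and Gzmd are uncertain. Mcpt1 and Mcpt4, 78.5% identical in protein, shared no such window (0% of Mcpt1) or few (5.48% of Mcpt4).

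RefSeq promoters (GRCm38.p6, 250 bases before to 50 after a gene's start) were found for 9 of the 10 members, all but Mcpt2. They are shown for the members whose sequences resemble each other or carry the same short motif near the start, as the 120 bases before the start, 5′ to 3′ on the gene's strand. Capitals mark TGTGGT or its reverse complement ACCACA, the core letters bound by RUNX factors.
Mcpt1, chr14:56017844-56017963, plus strand: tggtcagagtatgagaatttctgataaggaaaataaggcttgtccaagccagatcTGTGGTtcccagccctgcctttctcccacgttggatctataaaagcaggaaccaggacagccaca
Mcpt4, chr14:56062311-56062430, minus strand: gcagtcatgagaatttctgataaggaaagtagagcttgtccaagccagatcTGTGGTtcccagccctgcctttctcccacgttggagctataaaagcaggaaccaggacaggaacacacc
Ctsg, chr14:56102575-56102694, minus strand: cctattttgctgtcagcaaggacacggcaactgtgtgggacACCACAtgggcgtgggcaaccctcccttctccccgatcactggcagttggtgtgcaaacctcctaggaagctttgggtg
Gzme, chr14:56120626-56120745, minus strand: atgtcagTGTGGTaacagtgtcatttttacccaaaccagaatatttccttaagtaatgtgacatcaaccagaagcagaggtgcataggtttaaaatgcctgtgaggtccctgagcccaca
Gzmd, chr14:56132594-56132713, minus strand: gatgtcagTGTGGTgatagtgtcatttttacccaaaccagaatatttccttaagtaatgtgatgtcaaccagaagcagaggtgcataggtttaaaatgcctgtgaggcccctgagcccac
Gzmc, chr14:56234658-56234777, minus strand: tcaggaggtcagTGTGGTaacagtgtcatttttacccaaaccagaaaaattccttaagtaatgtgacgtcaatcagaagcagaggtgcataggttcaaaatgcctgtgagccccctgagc
Gzmb, chr14:56262335-56262454, minus strand: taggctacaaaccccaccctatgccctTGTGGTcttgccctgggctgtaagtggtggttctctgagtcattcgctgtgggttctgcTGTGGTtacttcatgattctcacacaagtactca
The letters TGTGGT, searched on both strands of the 300 bases, were in 9 of 9 member promoters and in 16.8% of 32851 promoters of that length. At least 2 copies were in 5 of 9, against 1.81% of all promoters. Copies lay 65 and 69 bases before the start in Mcpt1 and Mcpt4, whose promoters were 83.7% identical and 93 and 34 bases before it in Gzmb. The promoters of Gzme, Gzmd and Gzmc were 85.3% to 93.7% identical. The members with TGTGGT are thus not independent sequences. The only copy in Cma1 lay 33 bases after its start. TATAAA, searched on both strands, was in 3 of 9 against 13.6%, and AGATAA, the letters of a GATA site, in 0 of 9 against 11.2%. No more than 3 CG pairs were found in 8 of 9, against 31.4% of all promoters. These matches are descriptions of the sequence, and no binding was measured.

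In adult WT mTEChi Mcpt2, Gzmb and Mcpt1 had the highest summed levels of the cluster, at 10.3, 8.48 and 8.11 CPM over the 620 cells, and the 4 pools differed widely. Mcpt2, a chymase of mucosal mast cells, was at 11.0, 0, 14.5 and 0.989 CPM in pools 1 to 4. Mcpt1, a relative from the same mast cells, was at 6.76, 0.125, 17.4 and 5.83 CPM. Pools 1 and 3 were the high ones for both genes, and the 12 cells of pool 2 held almost no reads. Mcpt4, the chymase of connective tissue mast cells, was at 7.40, 0, 6.67 and 1.11 CPM. Cma1, the alpha-chymase, was at 6.03, 0, 1.21 and 0.371 CPM and so came chiefly from pool 1.

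Mcpt8, the basophil protease, was lower, at 1.89, 0, 3.49 and 0 CPM. Ctsg was at 3.70, 0, 4.58 and 2.39 CPM. Among the granzymes, Gzmb, the killer-cell protease that cleaves after aspartate, was at 9.26, 0, 8.99 and 3.55 CPM. Gzmc, a granzyme of activated cytotoxic cells, was at 3.31, 0, 4.63 and 1.44 CPM. Gzme was at 0.760, 0, 0.273 and 0.701 CPM and Gzmd at 1.16, 0, 0 and 0.103 CPM, the lowest of the 10. Per kb of exon, with the 620 cells summed, the order was Mcpt2 (9.69 CPM per kb), Mcpt1 (7.99), Gzmb (5.91), Mcpt4 (5.89), Cma1 (4.27), Gzmc (3.64), Ctsg (3.51), Mcpt8 (1.91), Gzmd (0.897) and Gzme (0.731). The pools of every member overlapped those of its neighbours in that order.

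**Figure D1:**
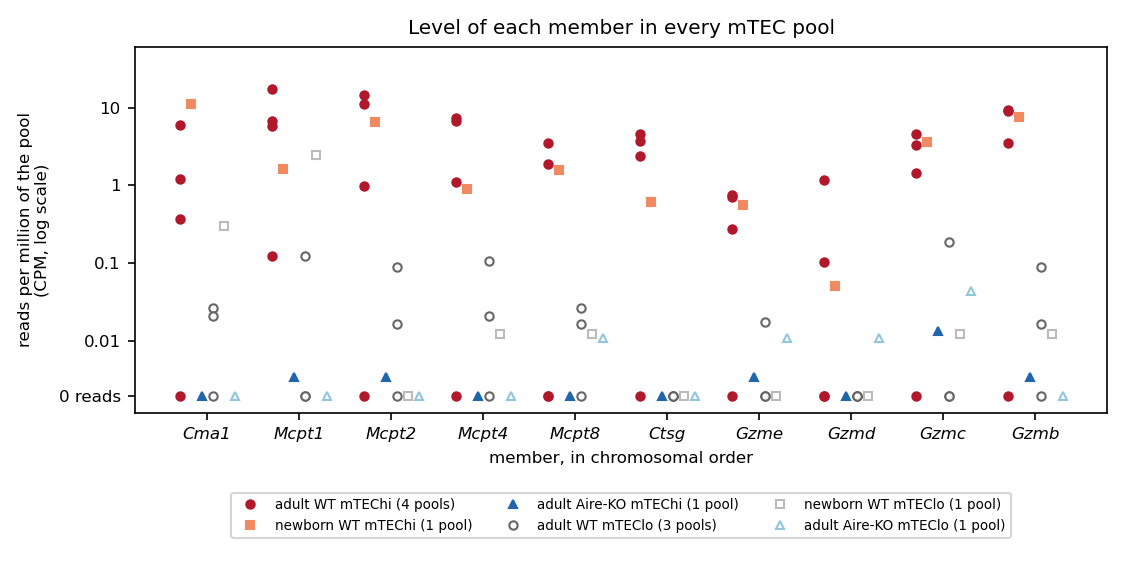
Level of each member in each mTEC pool, in CPM of summed reads on a log axis, with pools at 0 on the lowest mark and each group in its own colour and symbol. Adult WT and newborn mTEChi hold most of the high values, except for newborn mTEClo Mcpt1 at 2.47 CPM, and Aire-KO mTEChi lies at or near 0 for all 10 genes.

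A cell was taken to hold a gene at 5 or more reads. In adult WT mTEChi, Gzmc was held by 7.58% of cells (47 of 620), Cma1 by 5.16% (32), Gzmb by 4.52% (28), Mcpt2 by 4.19% (26), Mcpt1 by 3.55% (22) and Mcpt4 by 18 cells. Ctsg was held by 12 cells, Mcpt8 by 10, Gzmd by 8 and Gzme by 7. Gzmc thus had the most cells but a low level within them, with a median of 21.5 CPM over its cells. The median was 108.6 CPM in the 18 cells with Mcpt4 and 100.7 CPM in the 22 with Mcpt1. Single cells reached 1479.3 CPM of Gzmb and 1335.6 CPM of Mcpt2. The 10 genes together took 23109 reads, 0.00484% of all reads of these cells, and 10 cells held 48.3% of them. Of the 26 cells with Mcpt2, 12 were in experimental batch 39 (16.0% of its cells), against at most 4.69% in any other batch. Many of the 12 held only 5 to 8 Mcpt2 reads, in the batch of the cell at 1335.6 CPM. Batch 38, with the cell at 1479.3 CPM of Gzmb, had 7 cells with Gzmb, most at 5 or 6 reads. The cause of this was not tested.

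**Figure D2:**
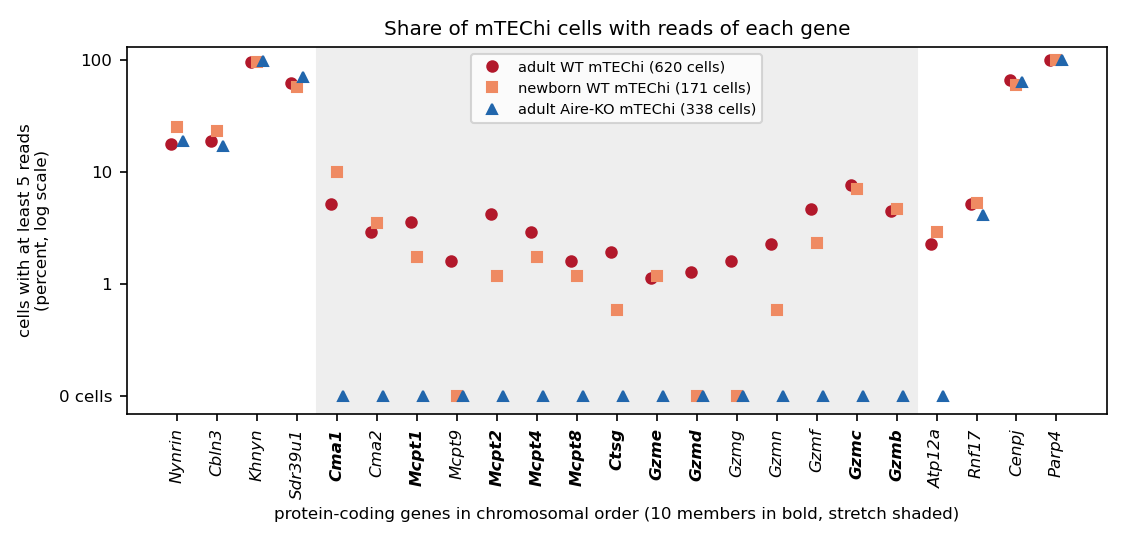
Percent of cells (log axis) with 5 or more reads of each protein-coding gene of the stretch (shaded) and the 4 nearest on each side, in chromosome order, for adult WT, newborn WT and Aire-KO mTEChi. In the stretch Gzmc is highest in adult WT cells at 7.58% and Aire-KO cells stay at 0, while on the flanks all but Atp12a are held in the 3 groups.

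Of the 620 adult WT mTEChi cells, 120 held at least 1 member (19.4%, exact binomial 95% interval 16.3 to 22.7, for counting error only). By pool the share was 20.3%, 0%, 23.2% and 13.4%, with a mean of 14.2% ± 10.3 (SD, n = 4). All 9 experimental batches, as the labels name them, had cells with a member, from 6.94% to 28.1%. At 1 or more reads the share was 45.3%, and with each cell thinned to 200000 reads it was 12.4%. In newborn mTEChi it was 33 cells (19.3%, 13.7 to 26.02), near the adult share.

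Of the Aire-KO mTEChi cells, 0 held a member, with an exact binomial upper limit of 1.085%, and a floor of 3 cells allows a share of up to 0.888%. In 6 cells (1.78%) 1 to 3 reads of a member were found, and 8 reads in all, of which 4 were Gzmc. No read was found of Cma1, Mcpt4, Mcpt8, Ctsg or Gzmd. WT levels were at least 637.4-fold higher for Mcpt4, 454.4-fold for Cma1, 354.5-fold for Ctsg, 185.6-fold for Mcpt8 and 84.4-fold for Gzmd, taking a floor of 3 reads over the Aire-KO pool. Gzmc was 238.6-fold higher in WT (95% counting interval 92.99 to 876.7). The other 4 members had 1 Aire-KO read each, and their ratios ran from 196.3 for Gzme (34.97 to 7775) to 3013 for Mcpt2 (540.5 to 119031). The Aire-KO cells were as deep as the WT cells, with medians of 812729 and 772240 reads. They came from 4 experimental batches that held no WT mTEChi cell, so genotype and batch cannot be told apart. The only WT mTEChi pool of the same age and sex, pool 2, had 12 cells, and 0 of these held a member. Of all genes held by at least 5 WT cells, 6.06% were held by no Aire-KO cell, and of those held by 5 to 62 WT cells 13.6%. Since the choice of members used this contrast, nothing is read from their 10 of 10.

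The 5 non-member proteases of the stretch went the same way. Cma2, Gzmf, Gzmn, Mcpt9 and Gzmg were held by 18, 29, 14, 10 and 10 WT cells and by 0 Aire-KO cells, and their WT levels were at least 36.2-fold (Gzmg) to 324.4-fold (Cma2) higher. The 4 nearest coding genes on the left, 41.2 to 66.7 kb from Cma1, had WT to Aire-KO ratios of 0.909 to 1.23. On the right the nearest coding gene, Atp12a, 102.8 kb from Gzmb and a proton pump subunit, had 5118 WT reads in 14 cells and 0 in Aire-KO cells, at least 1046.2-fold higher in WT. The next genes on that side had ratios of 1.83 (Rnf17), 1.05 (Cenpj) and 0.861 (Parp4). Outside the locus, ratios were 62.7 for Tpsg1, 57.9 for Tpsb2 and 43.2 for Tpsab1, tryptases of mast cells, and 32.5 for Gzma and 22.5 for Cpa3, a mast cell carboxypeptidase. The granule genes Gzmm, Srgn, Serpinb9 and Prf1 were at 1.13, 1.11, 1.25 and 1.99.

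In adult mTEClo the members were near 0, and the rule had not used those cells. Mcpt1 was at 0.124, 0 and 0 CPM in the 3 pools, Gzmb at 0.0889, 0.0167 and 0 CPM, and Ctsg and Gzmd had no read. A member was held by 1 adult WT mTEClo cell. The mTEChi pools were above every mTEClo pool for Mcpt1, which for pool 2 rests on 1 read in 12 cells (0.1252 against 0.1244 CPM). They overlapped the mTEClo pools for the other members, which had mTEChi pools at 0 (pool 2, and also pool 4 for Mcpt8 and pool 3 for Gzmd). In edgeR's quasi-likelihood test on pools, over 39971 genes, 3 members were called higher in mTEChi at an adjusted p under 0.05, where 7.54% of all genes were called higher and 11.7% in either direction. Mcpt1 was higher by 6.98 ± 1.9 (log2 fold change, SE; 4 and 3 pools), with an edgeR adjusted p of 0.0469. For Gzmb the difference was 6.79 ± 1.82 (edgeR adjusted p of 0.0451). Ctsg, with no mTEClo read, was at least 265.5-fold higher over the summed cells (edgeR adjusted p of 0.0337). The other 7 had adjusted p values of 0.0522 (Cma1) to 0.121 (Gzmd) in edgeR and log2 differences of 4.79 to 8.20. The calls rest on few pools, and adult mTEChi and mTEClo shared no experimental batch. DESeq2 called 9 members, where it called 25.2% of all genes, and edgeR called 10 with experimental batches as the unit, where 34.3% of all genes were called. Leaving out a pool, edgeR called 7 without mTEChi pool 2 (13.9% of all genes), 1 without the first mTEClo pool (9.97%) and 0 without any of the other 5 (4.70% to 6.69%). The shares of all genes for DESeq2, batches and left-out pools are for calls in either direction. The mTEChi levels were in view when the members were chosen, so these calls are not independent of that choice. All 10 passed the filter on low counts, which mTEChi pools alone could carry.

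In newborn mTEChi Gzmb was at 7.52 CPM, Mcpt2 at 6.46 CPM and Gzmc at 3.62 CPM, between the values of the larger adult pools 1, 3 and 4. Mcpt1 (1.62 CPM), Ctsg (0.620 CPM) and Mcpt4 (0.909 CPM) were below those 3 pools and above pool 2. Gzmd had 5 reads in all (0.0516 CPM) and no newborn cell with 5. Cma1 was at 11.0 CPM in the newborn pool, above all 4 adult pools, and was held by 17 newborn cells. Its difference from adult was 2.55 ± 1.66 (log2, SE) with an edgeR adjusted p of 1. edgeR called 0 of 39971 genes between newborn and adult mTEChi (0% in the background). At an unadjusted p under 0.05 edgeR had 2.01% of all genes but 0 members, and DESeq2 called 35 genes and 0 members. Newborn mTEClo and both cTEC groups were low, with a member in 1.61% of newborn mTEClo, 1.44% of newborn cTEC and 1 of 77 adult cTEC. Between Aire-KO and WT mTEClo edgeR called 0 of 39971 genes (0% in the background), with 3.55% of genes and 0 members at an unadjusted p under 0.05, while DESeq2 called 0.687% of genes and 0 members.

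Within adult WT mTEChi the members shared cells more than their separate frequencies give. Of the 120 cells, 79 held 1 member, 22 held 2 and 7 held 3. Of the rest, 3 held 4, 4 held 5, 2 held 6, 2 held 7 and a single cell held 8. The cells with 2 or more numbered 41, against 26.9 expected from each gene's share within its pool. The cell with 8 members, from pool 1, was at 1335.6 CPM of Mcpt2, 485.03 CPM of Mcpt8, 180.2 CPM of Cma1, 117.8 CPM of Ctsg and 102.2 CPM of Mcpt1, with 23 reads of Gzme, 12 of Mcpt4, 5 of Gzmd and 0 of Gzmc and Gzmb. Another was at 1289.2 CPM of Mcpt2, 984.5 CPM of Mcpt1 and 612.1 CPM of Mcpt4. The cell with the most Gzmb, at 1479.3 CPM, had 62 reads of Gzmc and 0 of the other 8 members.

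**Figure D3:**
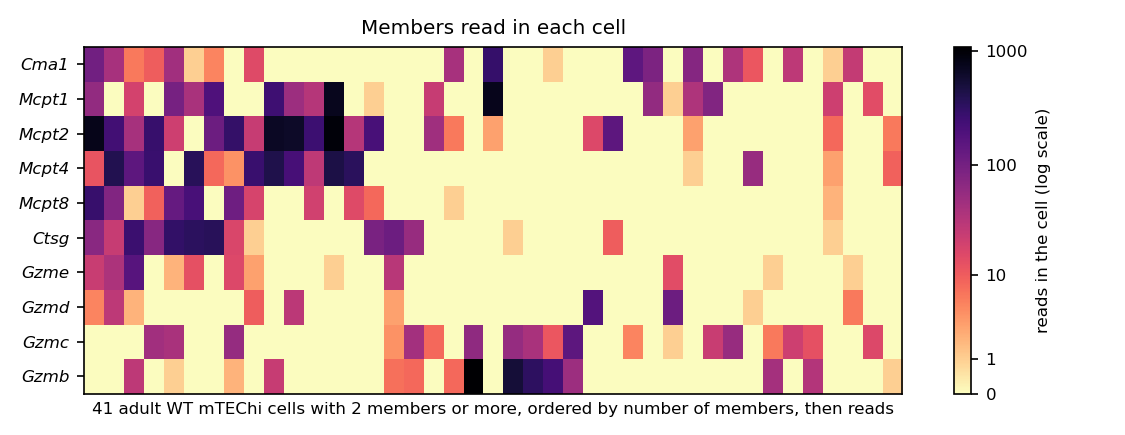
Reads of each member (rows, in chromosome order) in the 41 adult WT mTEChi cells (columns) with 2 members or more, on a log colour scale. Cells are ordered by the number of members, and the first holds 8, with neighbouring chymase rows dark in the same cells.

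The Pearson r of log2(CPM + 1) over the 620 cells had a median of 0.238 over the 45 pairs of members and a range of -0.02 to 0.66. Cells with both genes of a pair, summed over the pairs, were 6.26 times the 32.1 expected, and 41 of the 45 pairs were above expectation. A cell with many members counts in each of its pairs. The few cells with 5 to 8 members thus weigh heavily in pair cells, here and below. Counted by cell, 41 held 2 or more members against 26.9 expected. Mcpt2 and Mcpt4, 14.99 kb apart, had the highest r, at 0.656, and were held together by 12 cells against 0.829 expected. Ctsg and Gzme followed at 0.641 (6 cells against 0.138) and Mcpt8 and Ctsg at 0.634 (7 cells against 0.211). Mcpt2 was also held by 9 of the 10 cells with Mcpt8. The genes of all pairs share the same cells and libraries, so the pairs are not independent. In the 3 pools with readable pairs the median r was 0.255, 0.303 and -0.017 in pools 1, 3 and 4, and pool 2 gave none. Observed over expected pair cells ran from 3.85 to 8.50 over the 9 experimental batches.

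**Figure D4:**
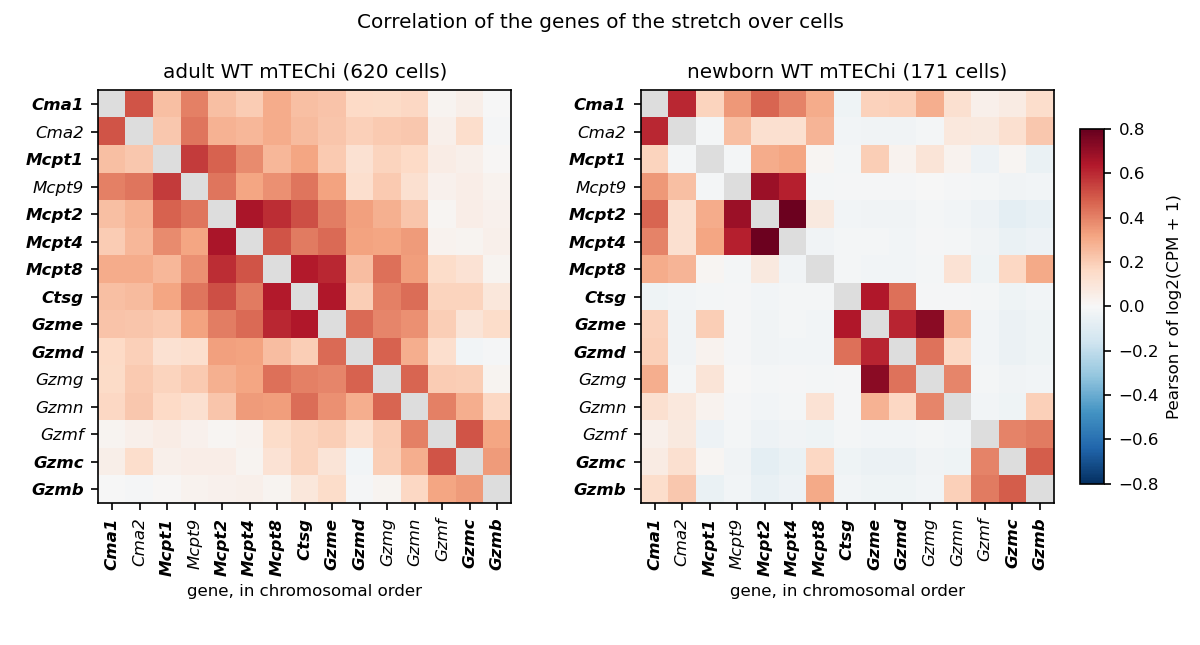
Pearson r of log2(CPM + 1) between the 15 protein-coding genes of the stretch (members in bold) over adult WT (left) and newborn WT (right) mTEChi cells, in chromosome order, with grey where no r could be had. In adult cells the highest values among members, 0.641 and 0.656, lie near the diagonal, and those of Gzmc and Gzmb with the members before them stay low.

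Joint expression was strongest between close genes. The median r was 0.471 for 13 pairs less than 50 kb apart, 0.238 for 19 pairs at 50 to 150 kb and 0.043 for 13 pairs farther apart, and pair cells were 12.6, 7.10 and 2.69 times expectation. The 8 members from Cma1 to Gzmd, a split made after the values were seen, gave a median r of 0.325 (28 pairs), against 0.042 for the 16 pairs of these genes with Gzmc or Gzmb. Gzmc and Gzmb, 24.2 kb apart, had an r of 0.338 with each other and 8 shared cells against 2.28. Cma1 and Gzmb, the ends of the stretch, had an r of -0.001. For scale, 1.67% of the 157856 gene pairs across the genome that lie within the same span had an r over 0.5, and 6.32% of the 18426 pairs of genes held by at most 62 cells. Among the members 7 of 45 pairs did. The rule used co-expression, so no test is attached.

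**Figure D5:**
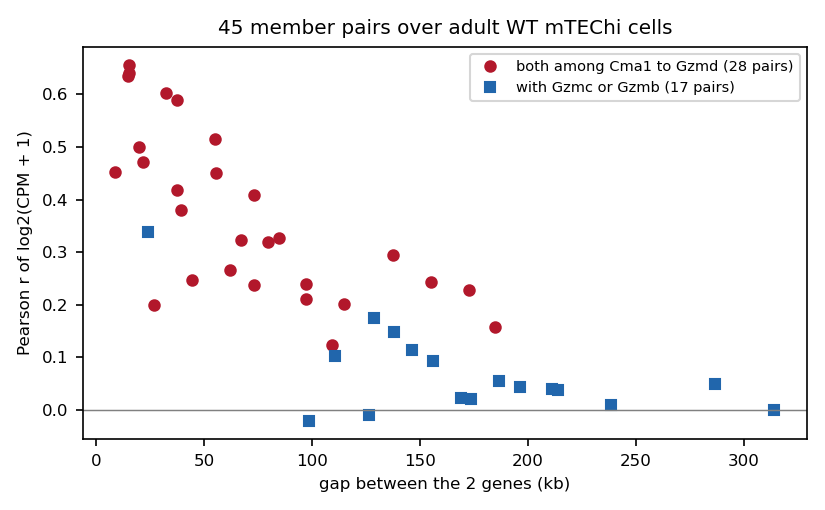
Pearson r of each pair of members over 620 adult WT mTEChi cells against the gap between the genes in kb, with pairs that include Gzmc or Gzmb as squares. The r falls from a median of 0.471 under 50 kb to 0.043 over 150 kb.

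In newborn mTEChi, cells the adult values did not use, the median r was -0.013, and pair cells were 25 against 5.77 expected. Gzmc and Gzmb had an r of 0.485 and shared 5 cells against 0.561 expected. An r of 0.782 for Mcpt2 and Mcpt4 rested on 2 shared cells and that of 0.638 for Ctsg and Gzme on 1, while Gzme and Gzmd, at 0.611, shared 0 cells at 5 or more reads and have transcript windows in common.

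The genes whose pattern was most like each member over the 620 cells lay largely in the stretch. Among the 5 genes of highest r for each member, 50 places in all, 41 were genes of the stretch, and the first was for all 10. Mcpt4 led for Mcpt2 at 0.656, Mcpt-ps1 for Cma1 at 0.650, Mcpt9 led for Mcpt1 at 0.559, Gzmf for Gzmc at 0.501 and Gzmg for Gzmd at 0.474. Of their 50-base windows, 5.48% for Mcpt4, 18.8% for Mcpt9, 7.36% for Gzmf and 19.8% for Gzmg occur exactly in another gene. Ctsg, first for Mcpt8 and Gzme, had 0%. The part of ambiguous reads in these r values was not tested. Genes outside reached at most 0.440 (Cngb3, a channel subunit of cone cells, with Mcpt8). Npffr1, a neuropeptide receptor, had 0.333 with Gzmd. The 99th percentile of r over all genes compared was 0.123 to 0.146. The fewest were for Gzmb, with 2 of 5 in the stretch, and Gzmc and Gzmd, with 3 each. The tryptase and casein clusters serve as a scale. The 7 genes of the tryptase region had a median r of 0.554 and were held by 31.8% of WT and 8.88% of Aire-KO mTEChi cells, and the 5 of the casein region a median r of 0.224 in 98.1% and 93.2%.

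Cells with a member did not lack mTEC genes. All 120 held at least 2 of 5 mTEC markers, as did the 500 cells without a member, and all 120 held Aire against 98.4% of the 500. Aire had a median of 1237.2 CPM in cells with a member and 1001.6 CPM in the others, and 67 of 120 were above the median of all 620, as were 19 of the 41 cells with 2 or more members. In newborn cells the order was opposite, at 1243.3 CPM with a member and 1610.2 CPM without, and 14 of 33 were above the median. The r of the summed member level with Aire was 0.119 over 620 cells, and -0.020 in newborn cells. Cells with a member were deeper, with a median of 839671 reads against 758024, and the part of depth in these differences was not tested.

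In adult WT mTEChi, markers of the blood cells that use these proteases were read in both sets. Of mast cell genes, Cpa3 was held by 0.833% of cells with a member and 1.40% of the others, Fcer1a by 3.33% and 3.6%, and Ms4a2 by 5.83% and 2.60%, while Kit (73.3% and 72.2%), Hdc (98.3% and 94.8%) and Hpgds (52.5% and 49.8%) were common in both. Tpsb2 was in 23.3% and 8.60%, Il1rl1 in 30.8% and 18.4% and Gata2 in 6.67% and 3.4%, all more often in cells with a member. The summed mast cell list (9 genes) had medians of 960.7 and 874.1 CPM, with ranges of 18.1 to 4627 and 0 to 4324 CPM. The basophil and cytotoxic cell lists had medians of 0 in both sets, and at least 2 of their genes were in 4.17% and 0.800% (basophil) and in 5.00% and 1.40% (cytotoxic). Prss34, a basophil protease of the tryptase region, was in 20.0% and 6.40%. In the neutrophil list, S100a8 was in 62.5% and 38.0% and Ngp in 19.2% and 5.80%, and Ly6g and S100a9 also favoured cells with a member. Mpo (35.8% and 32.8%), Camp (10.8% and 8.20%) and Prtn3 (3.33% and 2.00%) were closer in the 2 sets. Elane went the other way (0.833% and 1.00%). At least 2 of the 8 genes of this list were in 54.2% and 32.6%. By this count cells with a member were also ahead for keratinocyte (58.3% and 45.6%), enterocyte (19.2% and 14.6%), cTEC (32.5% and 29.4%) and tuft genes (29.2% and 26.6%). The neuroendocrine and thymocyte lists went the same way, but microfold genes did not (75.8% and 77.4%). Of the tuft genes taken singly, only Dclk1 was more frequent in cells with a member (53.3% and 37.8%). Pou2f3 (21.7% and 30.2%), Trpm5, Avil and Il25 were less frequent in them. In newborn mTEChi the mast cell sum was lower with a member, at medians of 547.5 and 1024.3 CPM. At least 2 genes there were in 3.03% and 8.70% (cytotoxic), 0% and 0.725% (basophil) and 78.8% and 60.9% (neutrophil). Ptprc, which encodes the leukocyte antigen CD45 that the sort excluded, was held by 15.8% of adult cells with a member (19) and 6.00% of the others (30). The part of such cells in the results was not tested. Without the 49 cells holding Ptprc, 17.7% of cells still held a member and the median r of the pairs was 0.174. Among the 120, 89 had no Ptprc read at all. These last values were chosen after the data were seen.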

How the data were processed

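RamDA-seq counts of 1980 single thymic epithelial cells were analysed: 620 adult WT mTEChi (pool 1 of 444), 357 adult WT mTEClo (217 at 8 weeks), 338 Aire-KO mTEChi, 154 Aire-KO mTEClo, 77 adult cTEC, and 171 mTEChi, 124 mTEClo and 139 cTEC of newborns. The authors trimmed reads (fastp 0.20.0), aligned them with STAR 2.7.3a to mm10 (GRCm38), removed low mapping quality with SAMtools 1.9 and duplicates with Picard 2.21.1, and deposited raw read counts per gene from HTSeq 0.11.2, without strand. A second, length-scaled table was not used. For 168 cells the labels list 2 runs but the counts are in 1 column; how these were combined is not given in the sources used here. The labels gave groups, and cells sharing age and sex labels were summed as pools, which are the replicates; p-values measure spread between pools, which may be technical. Adult mTEC groups shared no experimental batch with each other or with newborn cells, so their differences cannot be told apart from batch. CPM is reads per 1000000 reads. Tests used edgeR 4.0.16 (quasi-likelihood, TMM, filterByExpr) on all 11 mTEC pools, Benjamini-Hochberg over all genes, called where the adjusted p was under 0.05 and the fold 2 or more; DESeq2 1.42.0 was an alternative. The edgeR comparison of adult WT mTEChi with mTEClo was tried on simulated counts. A floor of 3 reads served for zero groups. Correlations used log2(CPM + 1) of cells. Members, gene lists and rules were chosen with earlier results of these data known. Named genes are the 10 members, coding genes between and 4 on each side, Aire, granule genes, and the 5 genes of highest r per member among those held by at least 10 cells. Alternatives changed the test, scaling, filter, unit, block, read minimum, depth, pseudocount and pools used.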

Additional observations from a re-analysis of the deposited data

Results flagged for a closer look

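Over 23 sets of 4 adult WT mTEChi pools, a gap to the nearest pool above 0.829 of the range was met 3 times. A chance rate of about 1 in 20 would need like pools and independent sets. Pool 2 had 12 cells, and the sets held CPM and share of the same genes, so that rate does not apply here. The share of cells holding Gzme was 0 in pool 2, the smallest pool, and 1.13% to 1.22% in the others. The 12 cells of pool 2 are too few to show such a share. Gzmd was at 1.16 CPM in pool 1 and 1.80% of its cells held it, far above the other pools.

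Mcpt1 was higher in mTEClo than in mTEChi of newborns (2.47 and 1.62 CPM), while every adult mTEChi pool was above every adult mTEClo pool. For adult mTEChi pool 2 that rests on 1 read in 12 cells (0.1252 against 0.1244 CPM). All but 1 of the newborn mTEClo reads came from a single experimental batch, in which 1 cell held 5 or more, and the difference was not tested.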

How the results depend on the processing

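Members called higher in adult mTEChi than mTEClo numbered 3 (11.7% of all genes called), and 9 with DESeq2 (25.2%), 10 with experimental batches as the unit (34.3%) and 1 (Mcpt1) with the age and sex of the pool as a replicate block (7.51%). Leaving out a pool gave 0 to 7 (4.70% to 13.9%). The labels do not tie pools of both groups to the same mice, so the block shares only labels. Size factors of the RLE type or no filter on low counts left 3, though RLE moved the median log2 difference of all genes from 0.298 to 0.398. The cause of these shifts was not tested. In the other tested comparisons 0 members were called under every alternative run. At 1 or more reads the share of cells with a member was 35% as a mean of WT pools and 1.78% in Aire-KO mTEChi, and leaving out a pool gave WT means of 11.2% to 18.9%. The median r of pairs was 0.161 to 0.232 under other transformations, depths or centring, and 0.200 to 0.251 without a pool. Some differences, none of them called, changed sign. Newborn against adult, the log2 difference of Mcpt2 was 0.0047 with DESeq2 and -0.45 to 0.66 without a pool, that of Gzmb -0.44 with batches as the unit, that of Mcpt8 -0.17 to 1.23 and that of Gzme -0.034 to 0.73 without a pool. For Aire-KO against WT mTEClo the ranges without a pool were -1.01 to 0.32 (Mcpt8), -1.28 to 5.51 (Gzmc) and -0.082 to 3.6 (Gzme). Members with few reads per pool, above all Gzme and Gzmd, and pool 2 with 12 cells limit precision, and groups of 1 pool take their spread from the others.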
